A study of Mus musculus with 4 samples.

Results

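The fibulins are a family of secreted glycoproteins of the extracellular matrix, and the RNA level of 7 of their genes, Fbln1, Fbln2, Fbln5, Fbln7, Efemp1, Efemp2 and Hmcn1, was read in 4 mouse oral cancer cell lines. The genes were chosen by family membership, with the FPKM values of these same lines already known, so their levels and differences are a description and carry no test. All 7 were found among the 34721 entries of the expression table. Only 3 of them, Fbln2, Efemp2 and Fbln5, reached 1 FPKM in at least 1 line, as did 14165 genes of the whole table. FPKM is the fragment count of a gene scaled to the length of its transcript and to the depth of the library. It puts genes and lines on a common scale, but does not correct for differences in RNA make-up between libraries.

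The lines came from 2 male C57BL/6 mice aged 6 to 8 weeks whose buccal mucosa was treated with the carcinogen DMBA, for 28 weeks in the mouse of AOC3 and for 31 weeks in the mouse of AOC11. AOC3 and AOC11 were grown from the oral tumors, and AOC3-LN and AOC11-LN from metastases in lymph nodes of these animals. All 4 were passed under the skin of C57BL/6 mice, depleted of fibroblasts with an isolation kit and grown in serum-containing medium, with no treatment of the cultured cells. Each line is 1 line of 1 mouse with 1 library, so no difference has a replicate check, and a comparison of the AOC3 lines with the AOC11 lines cannot tell the mouse from the line.

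Fibulins share calcium-binding EGF-like repeats and a fibulin-type module at the carboxyl end. The long fibulins Fbln1 and Fbln2 bind basement membrane and microfibril proteins such as laminins, nidogens, perlecan, fibronectin and versican. Among the short fibulins, Efemp2 (fibulin-4) and Fbln5 are needed to assemble elastic fibers, where they bring lysyl oxidases to elastin, and Efemp1 (fibulin-3) binds the protease inhibitor Timp3. In most tissues fibulins are made in large part by fibroblasts and smooth muscle cells, and fibulin-2 is also known from epithelial basement membranes.

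The 4 lines carried epithelial and few stromal transcripts. Of 9 epithelial markers, 9 were at 1 FPKM or more in each AOC3 line and 8 in each AOC11 line, with summed levels from 3281 to 4036 FPKM and Krt18 highest. Of 10 fibroblast markers, none reached 1 FPKM in AOC3, AOC3-LN or AOC11, and 1, Postn, did in AOC11-LN at 3.54 FPKM. The 6 endothelial markers summed to at most 0.481 FPKM, led by Pecam1, and the 5 T cell markers to at most 0.0422 FPKM, led by Cd3d. Among 6 macrophage markers Cd68 and Csf1r were detected, while Adgre1 was listed at 0 in every line. In RNA from whole cultures, fewer cells of a type and less RNA per cell cannot be told apart. The table holds no read counts, and the steps between its low values put AOC3-LN at 28300000 fragments and the other libraries between 32400000 and 33900000.

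Fbln2 was the most abundant fibulin in every line and Efemp2 the next, and the remaining 5 were at 1.23 FPKM or less. Together the 7 genes summed to 185 FPKM in AOC3, 76.4 in its lymph node line, 203 in AOC11 and 133 in AOC11-LN. Fbln2 held 84.1% and 77.6% of that sum in AOC3 and AOC3-LN, and 98.8% and 80.1% in AOC11 and AOC11-LN. The share of Efemp2 was 15.4%, 22.1%, 0.732% and 18.2% in the same order of lines. AOC11 thus stood apart by having almost no Efemp2 beside the highest Fbln2 level of the 4 lines. The ratio of Fbln2 to Efemp2 FPKM was 135 in AOC11 and between 3.51 and 5.45 in the other 3 lines. The other 5 fibulins summed to 0.770, 0.239, 0.862 and 2.17 FPKM.

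**Figure D1:**
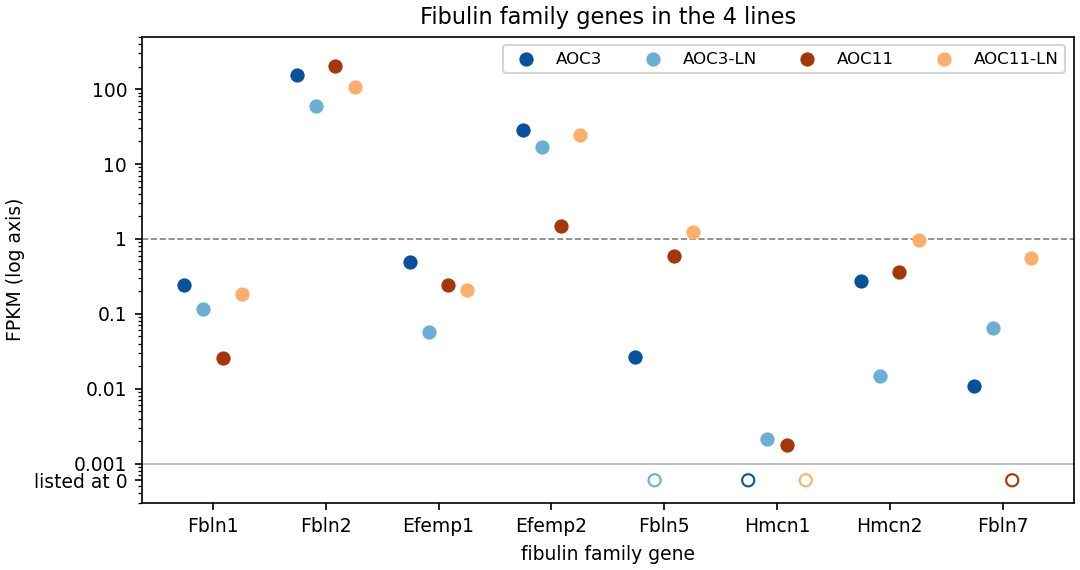
Deposited FPKM (log axis) of the 7 fibulins and of Hmcn2 in the 4 lines, 1 point per library; open circles below the grey line are values listed at 0, and the dashed line marks 1 FPKM. Fbln2 lies above 59 FPKM in every line, Efemp2 lies above 16 FPKM in 3 lines and at 1.48 in AOC11, and Fbln5 is above 0.5 FPKM only in the AOC11 lines.

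**Figure D2:**
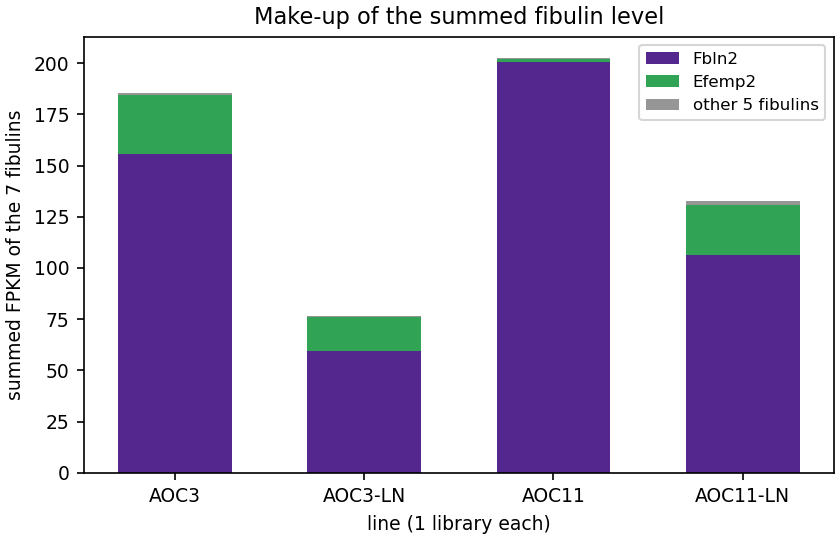
Summed FPKM of the 7 fibulins in each line (linear axis from 0), divided into Fbln2, Efemp2 and the other 5 genes; each bar is 1 library. The bar is shortest in AOC3-LN at 76.4 FPKM, and the Efemp2 part is nearly missing in AOC11.

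Fbln2 (ENSMUSG00000064080.12) lies at chr6:91212455-91272540 on the plus strand of mm10 and has 9 annotated transcripts. Its FPKM was 156 and 59.3 in AOC3 and AOC3-LN, and 200.4 and 106 in AOC11 and AOC11-LN. The order of lines was AOC11, AOC3, AOC11-LN and AOC3-LN, so both primary tumor lines were above both lymph node lines. Among 11380 protein-coding genes that reached 1 FPKM, Fbln2 stood at percentile 94.9 in AOC3 against 85.4 in AOC3-LN, and 96.1 in AOC11 against 92.1 in AOC11-LN. Fbln2 in AOC3 was 2.63-fold the level in AOC3-LN, with a 95% interval of 2.56 to 2.70, and in AOC11 it was 1.88-fold the level in AOC11-LN, with an interval of 1.85 to 1.92. These intervals are exact and cover counting error only, on fragment numbers estimated from FPKM, the longest transcript and the library's depth. They leave out the variation between cultures, which 1 library per line does not show.

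Differences between lines were taken on log2 of FPKM plus a pseudocount of 1, after quantile normalization, which understates the differences of genes below a few FPKM. A difference above 1 or below -1, a doubling or halving on that scale, was counted as past the threshold. In AOC3-LN against AOC3, Fbln2 differed by -1.36 and was the 1 fibulin past the threshold of the 3 that reached 1 FPKM, against 5.53% of all 14165 genes, 299 higher and 484 lower. A difference as low as that of Fbln2 was found in 294 genes, Fbln2 included. In AOC11-LN against AOC11 the Fbln2 difference was -0.97, just short of the threshold, and 487 genes were as low. Both lymph node lines were therefore below their own primary line. Between the primary lines the difference, AOC3 minus AOC11, was -0.39, and between the lymph node lines it was -0.78.

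The 3 protein-coding genes whose profile over the 4 lines lay nearest to that of Fbln2, by the distance between mean-centred log2 values, were Fkbp11 at 0.278, Mical2 at 0.288 and Ly75 at 0.315 log2 units. Fkbp11 is a peptidyl-prolyl isomerase of the secretory pathway, Mical2 a monooxygenase that acts on actin and Ly75 an endocytic receptor. Fkbp11 had 24.6 FPKM in AOC3, 8.46 in its lymph node line, 27.2 in AOC11 and 16.8 in AOC11-LN, with the lines in the same order as for Fbln2. With 4 points, each likeness is a description of these libraries. No other gene overlaps Fbln2. The nearest annotated gene before its start was 4930402H05Rik, which did not reach 1 FPKM, and the nearest after its end was Wnt7a, a secreted Wnt ligand, 91441 bases away. Wnt7a had 43.2 FPKM and 42.5 in AOC3 and AOC3-LN, and 44.8 and 28.7 in AOC11 and AOC11-LN. None of the 3 expressed protein-coding genes within 100 kb passed the threshold in the AOC3 pair, the AOC11 pair or between the mice. Of all genes, 5.53%, 8.11% and 11.1% passed in these comparisons, so 3 genes say little of this region.

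Efemp2 (ENSMUSG00000024909.15), the gene of fibulin-4, lies at chr19:5473954-5482517 on the plus strand and has 17 annotated transcripts, 12 of them protein-coding. The sequences at its start are shown because Efemp2 had the widest range of the 7 fibulins on the scale of log2 of normalized FPKM plus 1, 3.51 units. On FPKM itself the range of Fbln2 was wider, and in fold terms genes with values near 0, such as Fbln5, differed more. RefSeq places 3 promoter windows there (build GRCm38.p6, the same coordinates as mm10), each from 250 bases before a transcript start to 50 after it. The stretch before the start at base 5473946 is chr19:5473696-5473945, and the stretch before the start at base 5474690, which also lies before a further start at base 5474735, is chr19:5474454-5474687. Both are printed 5′ to 3′ on the plus strand and only where no annotated exon lies, with capitals marking GC boxes, the 6-base motif GGGCGG on either strand, where neighbouring matches may overlap.
Efemp2, first start: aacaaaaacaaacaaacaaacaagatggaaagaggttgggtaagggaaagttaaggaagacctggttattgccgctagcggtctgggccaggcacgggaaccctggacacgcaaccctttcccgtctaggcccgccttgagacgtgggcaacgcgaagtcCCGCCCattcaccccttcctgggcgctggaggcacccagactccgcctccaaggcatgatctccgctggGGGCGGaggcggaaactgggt
Efemp2, second start: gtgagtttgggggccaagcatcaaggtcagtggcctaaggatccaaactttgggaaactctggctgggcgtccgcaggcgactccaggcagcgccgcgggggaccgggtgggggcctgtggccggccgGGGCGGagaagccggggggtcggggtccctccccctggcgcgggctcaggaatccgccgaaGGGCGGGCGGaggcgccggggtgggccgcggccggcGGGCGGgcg
The first stretch of 250 bases holds 2 GC boxes and 15 CpG sites, and the second, of 234 bases, holds 4 GC boxes and 26 CpG sites. The full windows hold 16, 35 and 41 CpG sites, at percentiles 67.0, 93.0 and 96.5 of 32851 promoter windows of the same length, whose median is 7. At least 1 GC box was present in 35.7% of all windows and in all 3 Efemp2 windows, with 2, 5 and 7 matches. The TATA motif TATAAA, in 13.6% of windows on either strand, and the AP-1 motif TGANTCA, in 7.81%, had no match in any Efemp2 window. The single Fbln2 window has 10 CpG sites and 2 GC boxes. These matches describe letters in the reference genome, and no measurement of methylation or factor binding was made in these lines.

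The FPKM of Efemp2 was 28.6 in AOC3 against 16.9 in AOC3-LN, and 1.48 in AOC11 against 24.2 in AOC11-LN. AOC11 was far below the other lines, while the remaining 3 lay within 1.69-fold of each other. Among protein-coding genes that reached 1 FPKM, Efemp2 was at percentile 10.6 in AOC11 and between 57.8 and 71.0 elsewhere. The AOC11 value rests on an estimated 123 fragments, with a counting interval of 102 to 147, if all came from the longest transcript, and on 9 if all came from the shortest coding one. In the same way the longest transcript gives 2385 fragments in AOC3, 1184 in AOC3-LN and 1939 in AOC11-LN.

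Efemp2 moved in opposite directions from primary to lymph node line in the mice. The log2 difference was -0.70 in AOC3-LN against AOC3, short of the threshold, and 3.21 in AOC11-LN against AOC11. On the FPKM scale AOC11-LN had 16.3 times the level of AOC11, with a counting interval of 13.6 to 19.7, and AOC3 had 1.69 times the level of AOC3-LN, with an interval of 1.58 to 1.82. Efemp2 was the 1 fibulin past the threshold in the AOC11 pair, where 8.11% of all genes passed, 704 higher and 445 lower. A difference as high as that of Efemp2 was found in 65 of 14165 genes, Efemp2 included. Between the primary lines, AOC3 minus AOC11, Efemp2 differed by 3.51 and was again the 1 fibulin past the threshold, against 11.9% of all genes. Between the lymph node lines it differed by -0.40 and no fibulin passed, against 16.3% of all genes.

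For the mice as a whole, the mean log2 level of Efemp2 was 4.58 ± 0.49 (SD, n = 2 lines) in the AOC3 lines and 3.02 ± 2.27 (SD, n = 2 lines) in the AOC11 lines. The difference of 1.55 passed the threshold, as did 11.1% of all genes, and was smaller than the spread of the AOC11 lines. Without AOC11 it was -0.054, and without AOC11-LN it was 3.16, so its direction rests on AOC11. In all, 175 genes, 1.24% of those that reached 1 FPKM, were lower in AOC11 than in every other line by more than 1 log2 unit. Efemp2 was the only one of the 7 fibulins among them, with a gap of 2.81 to the next line, and 25 genes, Efemp2 included, had a gap that large.

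**Figure D3:**
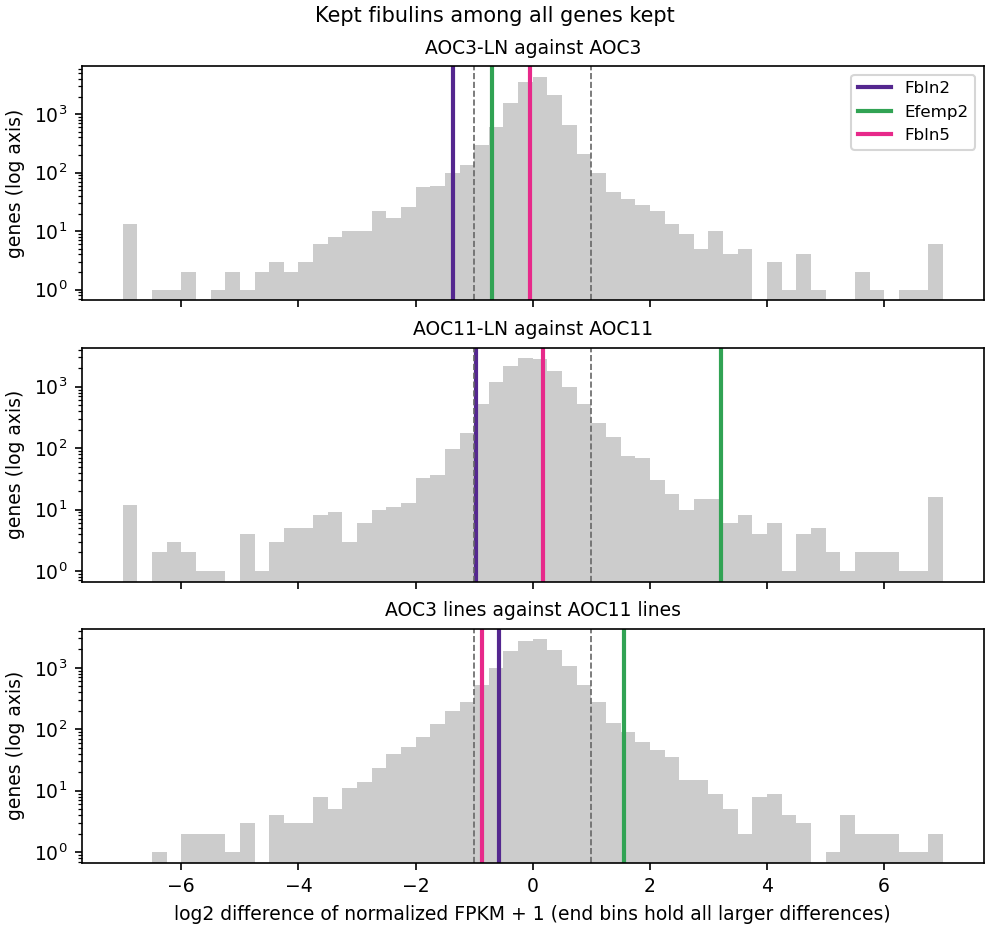
Histograms of the log2 differences of all 14165 genes at 1 FPKM or more in some line (vertical log axis, end bins hold all larger differences), with colored lines for Fbln2, Efemp2 and Fbln5 and dashed lines at -1 and 1. Efemp2 lies at 3.21 in the AOC11 pair and at -0.70 in the AOC3 pair, while Fbln2 lies at -1.36 and -0.97.

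The genes with the profile nearest to that of Efemp2 were Rbpms, an RNA-binding protein, at a distance of 0.596, Zbed3, a zinc finger protein, at 0.670 and Slc25a13, a mitochondrial carrier of aspartate and glutamate, at 0.836 log2 units. Each had its lowest level in AOC11, which follows from the choice by nearness to Efemp2. Rbpms had 34.1 FPKM in AOC3, 10.9 in its lymph node line, 0.870 in AOC11 and 21.9 in AOC11-LN. Zbed3 had 9.92, 5.03, 0.0864 and 14.7 FPKM, line by line. The profiles of both abundant fibulins were unlike each other. By the same distance, 3.68 log2 units, Efemp2 was the 11311th protein-coding gene from Fbln2. The distance grows with the range of a gene's values, so the wide range of Efemp2 is part of that rank.

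Efemp2 shares 173 bases at its end with Mus81, a DNA repair endonuclease on the minus strand. The libraries were made with a stranded kit, but the default settings named for the FPKM step do not say that strand was used, so fragments from the shared bases cannot be assigned with certainty. Mus81 had 8.37 FPKM and 7.997 in AOC3 and AOC3-LN, and 7.33 and 14.5 in AOC11 and AOC11-LN, a range of levels much narrower than that of Efemp2. The nearest gene before Efemp2 was Ctsw, a cysteine protease, 5447 bases away, with 3.99 FPKM in AOC3 against 0.925 in AOC3-LN, and 10.1 in AOC11 against 23.3 in AOC11-LN, and the nearest after it was AC126029.2, which did not reach 1 FPKM. Within 100 kb, 12 protein-coding genes reached 1 FPKM. In AOC11-LN against AOC11, 1 of the 12, Ctsw at 1.13, was past the threshold, beside 8.11% of all genes, but 11 of the 12 were above 0. The 12 ranged from -0.76 to 1.13 with a median of 0.62, against 3.21 for Efemp2 and -0.02 for the median of all genes, so most of the neighbors were also higher in AOC11-LN, by less than Efemp2. In AOC3-LN against AOC3, 1 was higher and 1 lower, beside 5.53% of all genes past the threshold. The 12 then ranged from -1.24 for Ctsw to 1.09, with a median of 0.28. Between the mice 2 were higher and 1 lower, beside 11.1% of all genes. There the range was from -2.34 to 1.70, whose upper end lies above the 1.55 of Efemp2, and the median was -0.01.

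**Figure D4:**
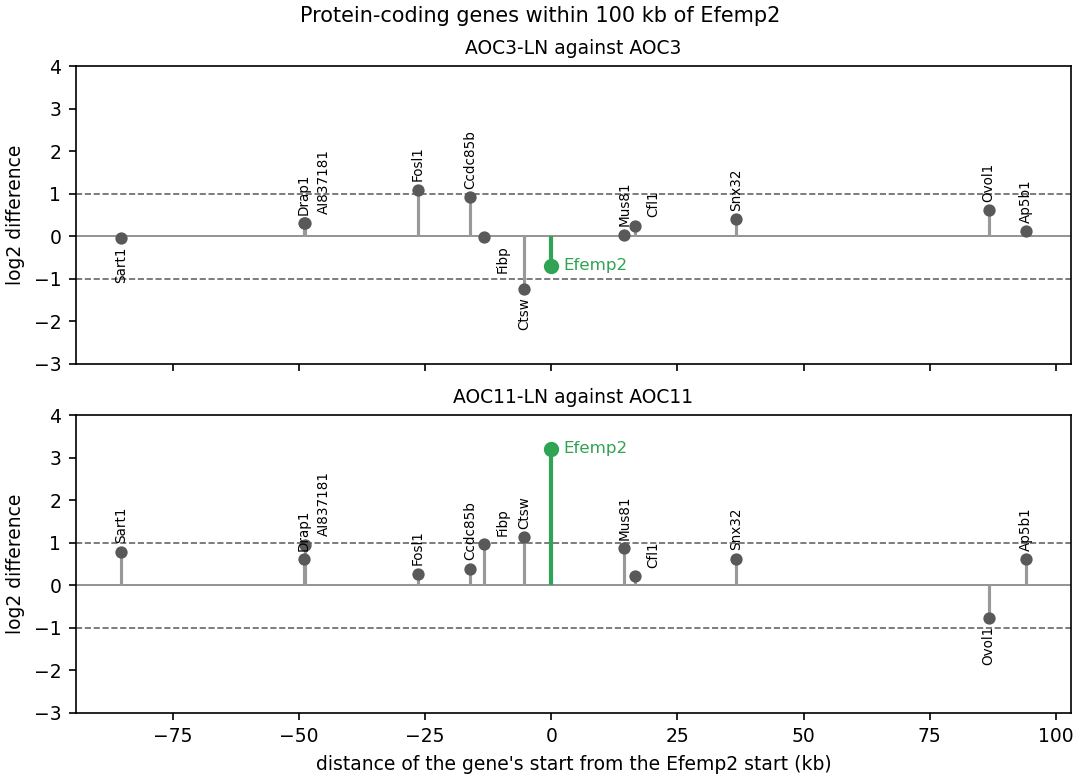
Log2 difference of the 12 protein-coding genes within 100 kb of Efemp2 that reached 1 FPKM, against the distance of their starts from the Efemp2 start in kb, for each lymph node line against its primary line; each point is 1 gene and dashed lines mark -1 and 1. In the AOC11 pair Efemp2 stands at 3.21 and its neighbors lie between -0.76 and 1.13, 11 of the 12 above 0.

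Csf1r, a receptor found on macrophages, was highest in AOC11, where Efemp2 was lowest. Its next highest level, 6.01 FPKM, was that of AOC11-LN, although Efemp2 reached 24.2 FPKM there. Csf1r was lower in both lines of the other mouse, with 0.995 FPKM for the primary line and 0.435 for the lymph node line. The summed level of the 6 macrophage markers was 14.0 FPKM in AOC3, 9.29 in its lymph node line, 27.0 in AOC11 and 10.5 in AOC11-LN, and Csf1r made up 20.8 FPKM of the AOC11 sum. Cd68 went the other way, at 13.0 FPKM in AOC3 and 8.79 in AOC3-LN, against 6.15 in AOC11 and 4.45 in AOC11-LN. Of the other 4 markers Adgre1 and Lyz2 were listed at 0 in AOC11, Itgam was at most 0.0135 FPKM, and the pan-leukocyte marker Ptprc at most 0.0640 FPKM in any line. The part of these transcripts in the Efemp2 result was not tested.

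Fbln5 (ENSMUSG00000021186.9), which tethers elastin to cells through an integrin-binding motif, lies at chr12:101746565-101819055 on the minus strand. Its FPKM was 0.0269 and 0 in AOC3 and AOC3-LN, and 0.596 and 1.23 in AOC11 and AOC11-LN, so both AOC11 lines were above both AOC3 lines. It met the filter only through AOC11-LN. The estimated fragments of the longest transcript were 5, 0, 114 and 225 in the same order, and the 3-fragment floor in AOC3-LN corresponds to 0.0187 FPKM. AOC11-LN had 2.06 times the FPKM of AOC11, with a counting interval of 1.64 to 2.60. On the log2 scale with a pseudocount of 1, the mean was 0.02 ± 0.03 (SD, n = 2 lines) in the AOC3 lines and 0.89 ± 0.12 (SD, n = 2 lines) in the AOC11 lines, a difference of -0.87 that did not pass the threshold. With a pseudocount of 0.1 it was -3.06 and did.

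The summed fibroblast markers and the summed smooth muscle and pericyte markers, like Fbln5, were higher in both AOC11 lines than in both AOC3 lines. The sums of the 6 endothelial markers, 0.441 and 0.408 FPKM in AOC3 and AOC3-LN and 0.328 and 0.481 in AOC11 and AOC11-LN, were not. The 10 fibroblast markers summed to 0.305 FPKM in AOC3 against 0.330 in AOC3-LN, and 1.30 in AOC11 against 4.76 in AOC11-LN, and the 6 smooth muscle and pericyte markers to 0.245, 0.0781, 6.06 and 7.26 FPKM. Most of the latter was Acta2, smooth muscle actin, with 5.79 FPKM in AOC11 and 6.97 in AOC11-LN. Cspg4, Des and Rgs5 were also higher in both AOC11 lines, at 0.0746 FPKM or less. Tagln and Myh11 did not have this pattern. Tagln was at 0.145 and 0.0245 FPKM in AOC3 and AOC3-LN and at 0.168 and 0.144 in AOC11 and AOC11-LN. Myh11 was at 0.0245, 0.0336, 0.0325 and 0.0102 FPKM in the same order. Of the 10 fibroblast markers, AOC3 and AOC11 each had 2 listed at 0, AOC3-LN had 4 and AOC11-LN had 1. Of the same 10, 8 had their highest level in AOC11-LN, as Fbln5 did. Postn was at 0.0593 and 0.00696 FPKM in AOC3 and AOC3-LN and at 0.757 and 3.54 in AOC11 and AOC11-LN. It made up most of the fibroblast sum in both AOC11 lines. Col1a1 was at 0.0411, 0.0153, 0.308 and 0.407 FPKM in that order. Some other fibroblast markers did not have this pattern. Col1a2 was at 0.0611, 0.00680, 0.0114 and 0.0230 FPKM, and Pdgfra at 0.129, 0.232, 0.152 and 0.383, in the same order. The part of these markers in the Fbln5 values was not tested. The nearest annotated genes, Tc2n and Trip11, did not overlap Fbln5. Neither of the 2 expressed protein-coding genes within 100 kb passed the threshold in the AOC3 pair, the AOC11 pair or between the mice. Of all genes, 5.53%, 8.11% and 11.1% passed there, so 2 genes say little of this region.

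The remaining 4 fibulins stayed below 1 FPKM in all lines, and 11 of the 28 values of the 7 genes rest on 10 or fewer estimated fragments. Fbln1, at chr15:85205949-85286535, had 0.241 FPKM in AOC3, 0.117 in its lymph node line, 0.0255 in AOC11 and 0.185 in AOC11-LN, from 28, 12, 3 and 21 fragments. The counting intervals of AOC3 and AOC11-LN, 18.6 to 40.5 and 13.0 to 32.1 fragments, overlap. Efemp1, at chr11:28853204-28926743, had 0.491, 0.0564, 0.239 and 0.211 FPKM, in that order, from 31, 3, 15 and 13 fragments. AOC3 had 8.70 times the level of AOC3-LN, with a counting interval of 2.71 to 44.5, while the last 2 values could not be told apart at this depth.

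Fbln7, an adhesion protein first known from teeth, lies at chr2:128862981-128897034. Its FPKM was 0.0108 and 0.0642 in AOC3 and AOC3-LN, and 0 and 0.549 in AOC11 and AOC11-LN, from 1, 6, 0 and 55 fragments, so it was detected above a handful of fragments in AOC11-LN alone. Hmcn1 (hemicentin-1), a very large fibulin with many immunoglobulin repeats at chr1:150562524-150993435, was listed at 0 in AOC3 and AOC11-LN and rested on 1 fragment in each of the other lines. Its relative Hmcn2, the remaining gene of the family and not one of the 7, had 0.278 FPKM in AOC3 against 0.0150 in AOC3-LN, and 0.358 in AOC11 against 0.957 in AOC11-LN. Fbln5, Fbln7 and Hmcn2 each had their highest FPKM in AOC11-LN, the line with the highest sum of fibroblast markers. In contrast, Fbln1, Efemp1 and Efemp2 were highest in AOC3, Fbln2 in AOC11 and Hmcn1 in AOC3-LN. A link of any fibulin to the fibroblast markers was not tested.

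Of the proteins that work with fibulins, 5 lists of genes were read, and 29 genes reached 1 FPKM. Transcripts of the elastic fiber core were at or near 0. Elastin (Eln) was at most 0.0365 FPKM, fibrillin-1 (Fbn1) at most 0.133, Fbn2 at most 0.00272, and the microfibril proteins Mfap2 and Mfap4 were listed at 0 in every line. Of the 12 elastic fiber and microfibril genes 5 reached 1 FPKM, Mfap5 and the 4 latent TGF-beta binding proteins. Ltbp2, which binds Fbln5, had 19.7 FPKM in AOC3, 1.24 in its lymph node line, 4.82 in AOC11 and 9.99 in AOC11-LN, and its difference of -3.11 in the AOC3 pair was the only one past the threshold there, beside a median of -0.15 for the 5 genes and 0.02 for all genes. In the AOC11 pair 2 of the 5 were higher, Ltbp3 by 1.16 and Ltbp1 by 1.09, with a median of 0.88 against -0.02 for all genes. Ltbp1, which tethers latent TGF-beta to the matrix, had 22.5 FPKM and 18.0 in AOC3 and AOC3-LN, and 1.02 and 4.06 in AOC11 and AOC11-LN, and between the mice it was the 1 gene of the list past the threshold, at 2.75, beside a median of -0.16. Like Efemp2 it was lowest in AOC11, but it was lower in both AOC11 lines than in both AOC3 lines.

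Lysyl oxidases cross-link elastin and collagen, and Lox itself is bound by Efemp2. Of the 5 genes 4 reached 1 FPKM. Lox had 1.39 FPKM in AOC3 against 0.0409 in AOC3-LN, and 1.66 in AOC11 against 0.0537 in AOC11-LN, so it was low in both lymph node lines, with differences of -1.14 and -1.45. In the AOC3 pair Loxl2 was also lower, at -1.10, and the list's median was -0.87. In the AOC11 pair Lox was the only one past the threshold, and the median was -0.47. Between the mice none passed, with a median of 0.34. The Lox levels followed the order of Fbln2, primary above lymph node, rather than that of its partner Efemp2. The Lox values of the lymph node lines lie near 0, in 1 library each, and the fragments behind them were not estimated.

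Basement membrane genes were abundant, with 11 of the 16 genes read at 1 FPKM or more. Col4a1, a chain of collagen IV, had 159 FPKM in AOC3, 149.7 in its lymph node line, 90.1 in AOC11 and 65.8 in AOC11-LN. None of the 11 passed the threshold in the AOC3 pair, where Fbln2 did, and their median difference was -0.24. In the AOC11 pair 1 was higher, Col18a1 by 1.26, and 2 were lower, Lama3 at -1.26 and Col4a2 at -1.06, with a median of -0.37 over the 11. Between the mice Col4a1 at 1.02 and Lamb1 at 1.01 were higher in the AOC3 lines, and Hspg2, the gene of perlecan, was lower at -1.07. The median of the 11 was then 0.26, against 0.01 for all genes. The nidogens Nid1 and Nid2, which join laminin to collagen IV and bind Fbln2, were below 0.44 FPKM in all lines.

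Of 9 other binding partners 5 reached 1 FPKM. In the AOC3 pair App, the amyloid precursor protein, was lower at -1.33 and the proteoglycan Vcan at -1.17, both known to bind Fbln1. In the AOC11 pair the protease Adamts1 was lower at -1.95, and between the mice fibronectin (Fn1) was higher in the AOC3 lines by 1.13. The medians of the 5 were -0.05, -0.51 and 0.85 in these 3 comparisons. Of 6 receptors 4 reached 1 FPKM. Itgb5, an integrin chain, had 47.4 FPKM and 6.14 in AOC3 and AOC3-LN, and 38.6 and 57.8 in AOC11 and AOC11-LN, a difference of -2.72 in the AOC3 pair and of -1.29 between the mice. Egfr, the receptor of epidermal growth factor, was lower at -1.43 in AOC11-LN against AOC11. The medians of the 4 receptors were -0.23 in the AOC3 pair, -0.54 in the AOC11 pair and 0.04 between the mice. Over the 5 lists, 6 of 29 genes passed the threshold in the AOC3 pair, 8 in the AOC11 pair and 6 between the mice, beside 5.53%, 8.11% and 11.1% of all genes.

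**Figure D5:**
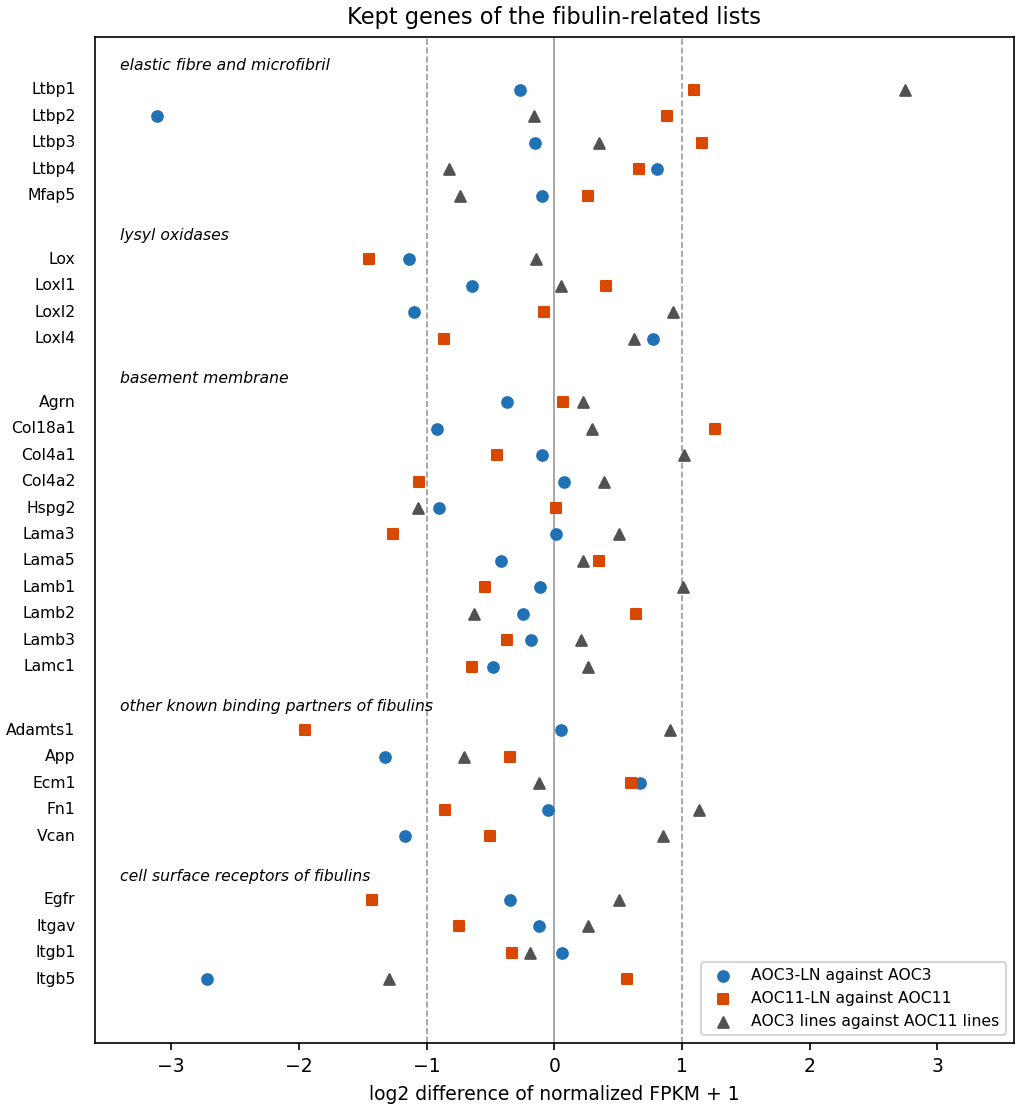
Log2 differences of the 29 genes of the 5 lists that reached 1 FPKM, by list, with a circle for AOC3-LN against AOC3, a square for AOC11-LN against AOC11 and a triangle for the AOC3 lines against the AOC11 lines; dashed lines mark -1 and 1. Ltbp2 at -3.11 and Itgb5 at -2.72 lie farthest to the left in the AOC3 pair, and Ltbp1 at 2.75 farthest to the right between the mice.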

How the data were processed

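RNA of 4 cell lines, 1 library each, was sequenced as stranded mRNA libraries. The authors trimmed reads with Trim Galore, mapped them to mm10 with TopHat2 and estimated FPKM with Cufflinks on GENCODE M21 at default parameters, and the deposited values are FPKM without the log2 and quantile steps of the methods. Tool versions are not given in the sources used here. Gene identifiers were matched to GENCODE M21, and all 34721 matched. FPKM plus a pseudocount of 1 was put on the log2 scale and quantile-normalized across the full table, and genes at 1 FPKM or more in at least 1 line were kept. Log2 differences beyond 1 in either direction were counted, with no test, since each line is 1 library. Fragments per library were estimated from the steps of low FPKM values among 9528 genes with 1 transcript, from 2797 to 3229 low values per library. Between 65.4% and 69.7% of these low values lay within 0.1 of a whole multiple. That share was taken on the same values that set the step, so the fragment numbers are approximate. Both steps were tested on simulated data. Intervals are 95% and cover counting error only. Promoter windows are from RefSeq (GRCm38.p6), and all 7 fibulins and Hmcn2 had at least 1. The genes, gene lists and markers were chosen with earlier results of these data known. Named genes are the fibulins with Hmcn2, up to 3 genes of each list past the threshold, the 3 nearest profiles, neighboring genes and the highest marker of each list. Eln, Fbn1, Fbn2, Mfap2, Mfap4, Mfap5, Nid1, Nid2, Adgre1, Itgam, Lyz2, Ptprc, Col1a1 and Col1a2 were named after their values were seen. So were Tagln, Myh11, Cspg4, Des and Rgs5. 1 gene of the basement membrane list is not reported here and was left out of its counts. The computation used Python 3.11.15, numpy 2.4.6, pandas 2.3.3 and scipy 1.17.1.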

Additional observations from a re-analysis of the deposited data

Results flagged for a closer look

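Efemp2 differed from primary to lymph node line in opposite directions in the mice, by -0.70 in AOC3-LN against AOC3 and by 3.21 in AOC11-LN against AOC11. The latter exceeded the former by 3.91 log2 units, and with 1 library per line the difference was not tested. Fbln5 also moved in opposite directions, by -0.04 in the AOC3 pair and 0.17 in the AOC11 pair, which gives 0.21, and this difference was not tested either. The Fbln5 values of the AOC3 pair rest on 5 and 0 estimated fragments.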

How the results depend on the processing

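The count of fibulins past the threshold was 1 in each of the 3 comparisons, Fbln2 in the AOC3 pair and Efemp2 in the AOC11 pair and between the mice. It stayed at 1 without quantile normalization, with median scaling, without the filter on low values, with a filter at 5 FPKM and among protein-coding genes only. With a 1.5-fold threshold it was 2 in each comparison, when 13.8%, 24.6% and 26.9% of all genes passed, and with a pseudocount of 0.1 it was 2 between the mice, where Fbln5 passed as well, when 18.5% of all genes passed. Leaving out 1 line at a time gave counts from 0 (without AOC11) to 2 (without AOC3 or without AOC11-LN) between the mice, when 10.3% to 13.8% of all genes passed, and an Efemp2 difference from -0.054 (without AOC11) to 3.16 (without AOC11-LN). Efemp2 in the AOC11 pair was 3.34 without quantile normalization and 3.76 with a pseudocount of 0.1, and Fbln2 in the AOC3 pair lay between -1.38 and -1.30. With the shortest coding transcript as the length, 15 of the 28 values, in place of 11, rested on 10 or fewer fragments. The 2 mice give 2 pairs of a primary and a lymph node line, and their differences are given side by side with no paired test, since the genes were chosen with these values known. The spread between cultures cannot be known from these libraries. Values under about 10 fragments limit what can be said of Fbln1, Fbln7, Efemp1 and Hmcn1, and of Fbln5 in the AOC3 lines. With the shortest coding transcript as the length, this also holds for Efemp2 in AOC11.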
